A study of Rattus norvegicus with 18 samples.

Results

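Glycolysis and hypoxia response genes were examined as a group of 34 transcripts that cover glucose entry, each enzyme step from hexokinase to lactate dehydrogenase, the pyruvate and lactate exits, and the hypoxia-inducible factors (HIF) with their regulators and classic targets. Of 35 listed names, 34 were found among the 28909 gene names of the deposited table, and CA9 was not analysed here under that name. The members were chosen by name and not by any measured value, although earlier results of these data were known. Of the members, 34 of 34 passed the filter on low values, which left 15204 genes to test. The cells were ventricular cardiomyocytes of wild-type SD rats taken at an age of 1 day, enriched by letting faster-attaching cells settle on dishes and cultured on collagen in low-serum medium with added pyruvate. The 3 control libraries came from cells given the solvent DMSO. The 3 treated libraries came from cells given blebbistatin, an inhibitor of the myosin II ATPase that stops contraction, for 0.5 h at 25 µM in the treatment protocol, although the series' design text also gives 0.25. Another 12 chromatin samples of the series were not analysed here. The labels do not say that libraries of a group came from separate preparations, so a p-value here speaks only of the spread among these libraries, which may be technical.

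Glycolysis turns glucose into pyruvate in the cytosol and yields ATP without oxygen. The pyruvate enters mitochondria through the pyruvate dehydrogenase complex or leaves the cell as lactate. Newborn heart cells rely strongly on this route and shift to fatty acid oxidation as they mature, and the ATP they make is spent largely on contraction. When oxygen falls, prolyl hydroxylases stop marking the HIF alpha subunits for destruction, and the stabilised factor raises most glycolytic genes together with genes of vessel growth and mitophagy. Much of this control acts on enzymes and on protein stability, which RNA levels do not measure.

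The labelled cell type was checked against its markers. Of 15 cardiomyocyte markers 14 were tested (no row was named TTN), and they summed to between 32467 and 34938 CPM (reads of a gene scaled to a common library total) in a library. Markers of fibroblasts were also plentiful, with 12 genes at 41070 to 47769 CPM. Single genes made up much of both sums, with MYH7 at 11150 to 19640 CPM and COL1A1 at 18800 to 24450 CPM. The 11 tested macrophage markers summed to 94.4 to 200 CPM and the 9 tested endothelial markers to 103 to 119 CPM. In such bulk samples fewer cells of a type and less RNA per cell cannot be told apart. DMSO replicate 1 was unlike the rest. It lay at -77.4 on the principal component that carried 42% of the variance, against -3.04 to 34.6 for the rest, and 29 of 29 tested ribosomal protein genes were lowest there, with a median log2 difference of -0.77 from the remaining libraries. RPS19 is listed at 0 there, which brings the mean difference to -1.06, against -0.71 over the other 28 genes. Depth was 59.6 to 63.3 M reads per library, as read from the smallest step between values.

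No member passed the test between blebbistatin and DMSO. Limma called 0 of the 34 members at a Benjamini-Hochberg adjusted p under 0.05, where 0.0197% of all genes were called (3 of 15204). By direction, 0.00658% of all genes were called higher and 0.0132% lower. At an unadjusted p under 0.05 it found 0 members, and 1.52% of all genes (0.743% higher, 0.776% lower). The median log2 fold change of the members, blebbistatin minus DMSO, was 0.019, beside 0.004 over all genes tested. There were 20 members with a positive value and 14 with a negative one. The treated libraries lay wholly above or wholly below the controls for 2 members (5.88%), beside 6.13% of all genes. These were ALDOC, lower after blebbistatin as were 2.89% of all genes, and EGLN1, higher as were 3.24%.

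**Figure D1:**
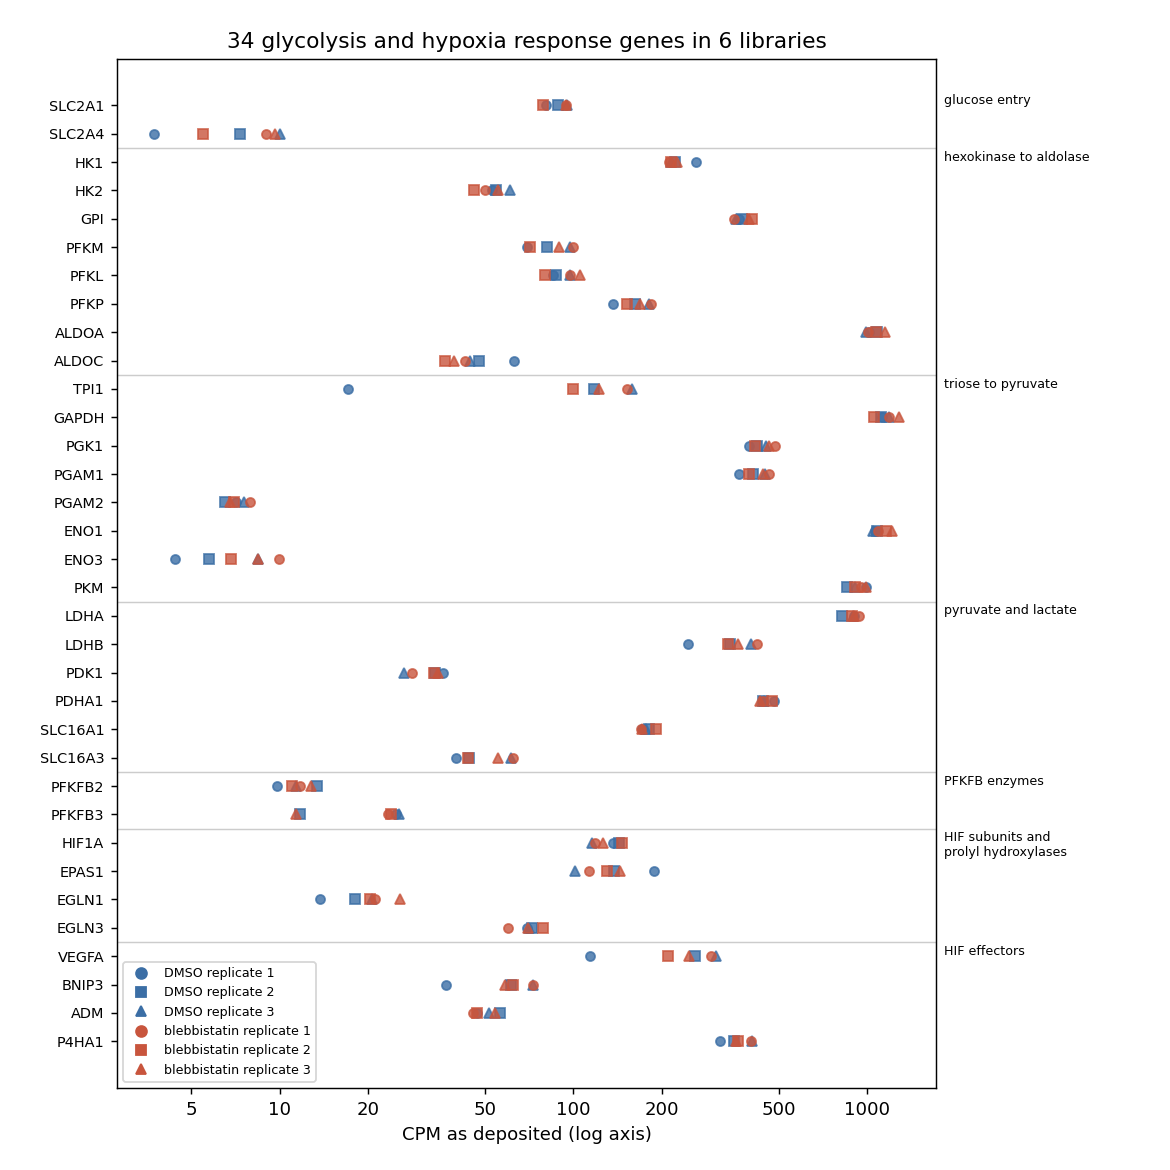
Each row is 1 gene and each point is its value in 1 library, in CPM as deposited, on a log axis (blue, DMSO; red, blebbistatin; marker shape, replicate number). Blue and red points overlap in every row other than those of ALDOC and ENO1, and the isolated blue circle of TPI1 at 17.1 CPM is DMSO replicate 1.

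The intervals bound the size of a difference. For 23 of the 34 members the 95% interval of limma's log2 fold change lay within 0.5 of 0 in either direction, a change of less than 1.41-fold. Over all genes tested this held for 29.1%. The median standard error was 0.146 for the members and 0.219 over all genes. The members were also more abundant, with a mean log2 level of 6.74 to 6.9 in a library, beside 3.62 to 3.71 over all genes tested. The part of this abundance in the narrower intervals was not tested. For 30 members the interval lay within 1 of 0, beside 71.9% of all genes. The 4 members with wider intervals were SLC2A4, TPI1, ENO3 and PFKFB3. An interval within these bounds limits the size of a change after 0.5 h and does not show that the groups were equal.

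**Figure D2:**
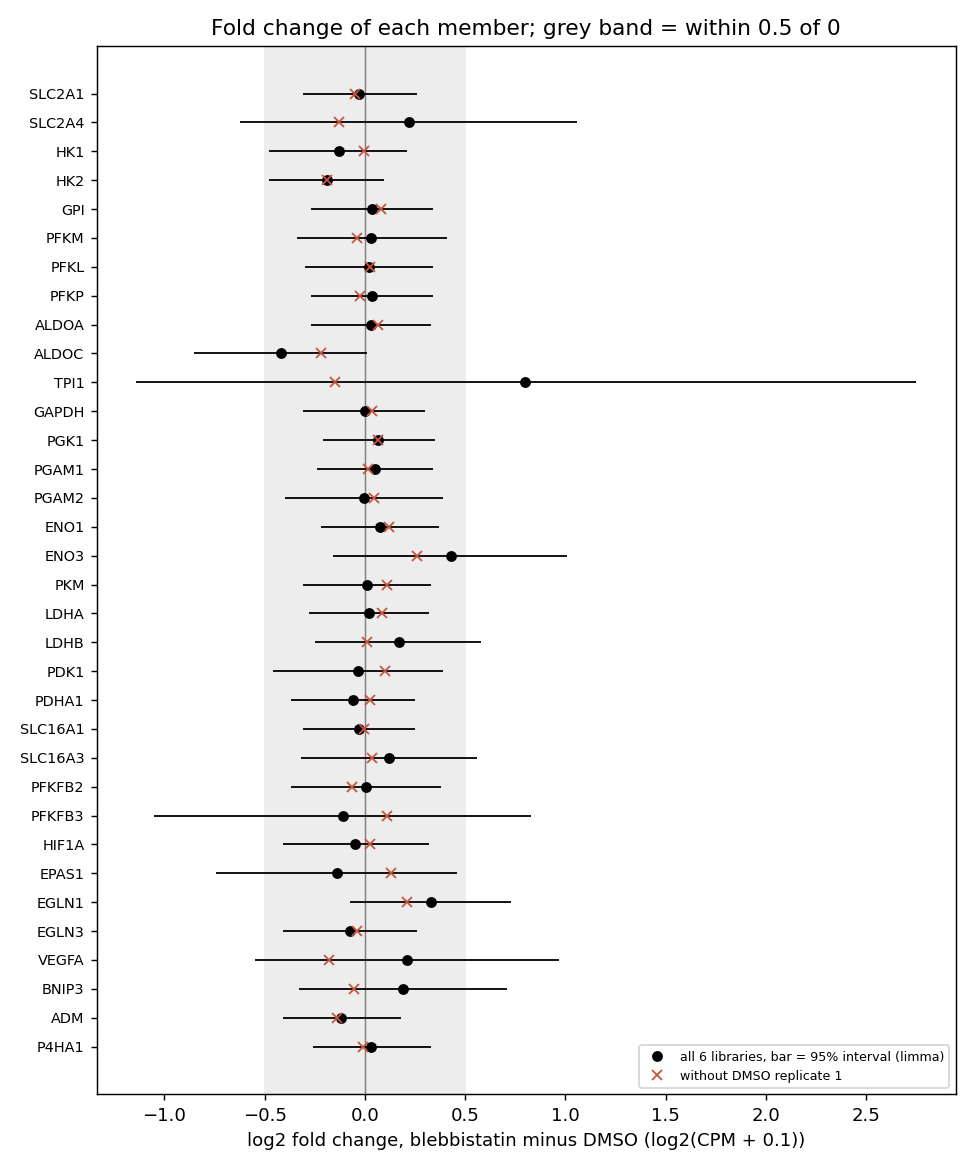
Points are log2 fold changes (blebbistatin minus DMSO, on log2(CPM + 0.1)) with 95% intervals from limma, 3 libraries per group, and red crosses are the values without DMSO replicate 1. Intervals of 34 of 34 members include 0, and 23 lie inside the grey band of 0.5 either side.

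ALDOC and EGLN1 are described first, with the promoter windows of both and of LDHA, a textbook HIF target whose window held the most copies of the HIF core motif. The windows are RefSeq's, in rat build GRCr8, and run from 250 bases before to 50 after the annotated start, 5′ to 3′ on the gene's strand. Capitals mark ACGTG or GCGTG on either strand (CACGT or CACGC when read on the printed strand). Overlapping copies run together, as in the capital run of 6 letters in LDHA.
ALDOC, chr10:63715294-63715593, plus strand: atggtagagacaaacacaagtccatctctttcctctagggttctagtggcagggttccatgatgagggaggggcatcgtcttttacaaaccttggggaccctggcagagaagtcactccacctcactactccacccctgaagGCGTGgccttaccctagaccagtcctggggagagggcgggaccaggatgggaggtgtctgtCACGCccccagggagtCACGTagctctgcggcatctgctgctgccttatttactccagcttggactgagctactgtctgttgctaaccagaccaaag
EGLN1, chr19:69804632-69804931, minus strand: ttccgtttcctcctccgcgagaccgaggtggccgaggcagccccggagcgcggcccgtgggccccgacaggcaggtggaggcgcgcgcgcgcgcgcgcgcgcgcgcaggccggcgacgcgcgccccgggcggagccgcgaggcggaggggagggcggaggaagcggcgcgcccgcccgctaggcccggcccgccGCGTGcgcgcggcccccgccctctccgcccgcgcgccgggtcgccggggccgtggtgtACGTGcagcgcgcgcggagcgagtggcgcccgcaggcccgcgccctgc
LDHA, chr1:106507842-106508141, plus strand: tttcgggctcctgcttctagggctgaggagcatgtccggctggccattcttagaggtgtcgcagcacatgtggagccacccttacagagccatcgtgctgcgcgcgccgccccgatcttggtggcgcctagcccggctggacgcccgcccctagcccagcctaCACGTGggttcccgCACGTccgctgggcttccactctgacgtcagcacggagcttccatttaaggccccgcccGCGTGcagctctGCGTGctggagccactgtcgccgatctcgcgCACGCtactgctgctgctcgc
The ALDOC window held 3 copies, the EGLN1 window 2 and the LDHA window 6. At least 1 copy was present in 22 of 37 windows of 32 members (59.5%), beside 41.6% of all 33469 windows of the same length. The form ACGTG alone was present in 45.9% of member windows and in 19.3% of all windows. Member windows were also richer in G and C, with a median of 62.3% against 51.7%. A match is a run of letters and not a bound site, and LDHA with its 6 copies had a log2 fold change of 0.019 with an interval from -0.28 to 0.32.

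ALDOC encodes the aldolase C isozyme, which splits fructose bisphosphate into triose phosphates. It was at 63, 47.9 and 44.5 CPM in DMSO replicates 1, 2 and 3 and at 42.8, 36.5 and 39.1 CPM in blebbistatin replicates 1, 2 and 3. The 3 treated values lay below the 3 controls, with the nearest pair 44.5 and 42.8 CPM. After scaling, the means were 52.9 ± 13.1 and 38.9 ± 2.47 CPM (SD, n = 3 each). Limma gave a log2 fold change of -0.42 ± 0.18 (SE; interval -0.85 to 0.013) and an adjusted p of 0.991. DMSO replicate 1 was the highest library, and without it the log2 fold change was -0.22.

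EGLN1 encodes the main prolyl hydroxylase that marks HIF alpha for destruction when oxygen is present. In replicate order, its DMSO values were 13.7, 18 and 20.7 CPM and its blebbistatin values 21.2, 20.3 and 25.7 CPM. As deposited, DMSO replicate 3 was above blebbistatin replicate 2, and the groups parted only after TMM scaling. With RLE size factors, or with none, they overlapped. Limma gave a log2 fold change of 0.33 ± 0.17 and an adjusted p of 0.991. It was 0.21 without DMSO replicate 1, the lowest library. EGLN3, the prolyl hydroxylase most strongly induced by HIF itself, was at 69.5, 72.4 and 70.7 CPM with DMSO and 60.1, 79 and 70 CPM with blebbistatin. Those groups overlapped.

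Glucose enters cardiomyocytes through the basal transporter SLC2A1 and the insulin-responsive transporter SLC2A4. SLC2A1 was at 80.6, 89 and 95.2 CPM with DMSO and at 94.1, 78.6 and 94.4 CPM with blebbistatin (log2 fold change -0.028 ± 0.12). SLC2A4 was at 3.74, 7.33 and 10 CPM and at 8.96, 5.5 and 9.65 CPM. The lowest SLC2A4 value was that of DMSO replicate 1, and the fold change of 0.22 ± 0.36 (log2) became -0.13 without it. Both transporters overlapped between the groups.

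Of the 8 genes from hexokinase to aldolase, 7 had log2 fold changes between -0.19 and 0.038, and ALDOC was the eighth. HK1 and HK2 encode the hexokinases that trap glucose as glucose 6-phosphate. HK2, the isozyme induced by insulin and by HIF, stood at 52.9, 54.7 and 60.8 CPM in the controls and at 49.9, 45.9 and 55.6 CPM in the treated libraries. Its log2 fold change of -0.19 ± 0.12 kept a negative sign with each library left out in turn (-0.26 to -0.14) and did not pass (limma, adjusted p = 0.991). HK1 had a value of -0.13 ± 0.15, and its highest library was DMSO replicate 1. The phosphofructokinase genes PFKM, PFKL and PFKP, for the committed step, had values of 0.031 ± 0.16, 0.02 ± 0.14 and 0.038 ± 0.13. GPI, the glucose phosphate isomerase gene, had scaled means of 371.6 ± 22.9 CPM in the controls and 381.1 ± 33.6 CPM in the treated libraries (n = 3 each, ± SD, the order and form of the means that follow), and ALDOA, the muscle aldolase gene, at 1043 ± 67.8 and 1065 ± 81.4 CPM.

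The enzymes from triose phosphate to pyruvate include the most abundant members, and 6 of 8 had positive fold changes. GAPDH, glyceraldehyde phosphate dehydrogenase and a common reference gene, was at 1128, 1112 and 1184 CPM with DMSO and 1187, 1056 and 1283 CPM with blebbistatin (log2 fold change -0.00076 ± 0.13). ENO1, the ubiquitous enolase gene, was at 1063, 1080 and 1049 CPM and at 1090, 1157 and 1213 CPM. As deposited, the 3 treated ENO1 values lay above the 3 controls, but they overlapped after scaling, and the log2 fold change was 0.076 ± 0.13. PKM, the pyruvate kinase gene, was at 936.2 ± 119 and 937.4 ± 32.8 CPM, and PGK1, phosphoglycerate kinase, at 428.2 ± 13.8 and 449.3 ± 29.8 CPM. PGAM1, the phosphoglycerate mutase of most tissues, and PGAM2, its muscle isozyme, had log2 fold changes of 0.05 ± 0.12 and -0.003 ± 0.17.

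TPI1 and ENO3 were both lowest in DMSO replicate 1. TPI1, triose phosphate isomerase, was at 17.1, 117.5 and 158.8 CPM with DMSO and 152, 99.9 and 121.9 CPM with blebbistatin. The resulting fold change, 0.80 ± 0.80 (log2), was the largest of the members and became -0.15 without DMSO replicate 1. In RefSeq's gene table of GRCr8, a newer assembly than the rn6 of the submitters' processing notes, TPI1 overlaps SPSB2, which was listed at 0 in DMSO replicate 1 and blebbistatin replicate 2 and at 6.3 to 9.49 CPM elsewhere. How reads of overlapping genes were shared out is not given in the sources used here, and 12 of the 34 members overlap another gene in that table. ENO3, the muscle enolase gene, was at 4.41, 5.75 and 8.42 CPM and at 9.96, 6.81 and 8.42 CPM. The log2 fold change of ENO3 was 0.43 ± 0.25 (limma, adjusted p = 0.991), and 0.26 without DMSO replicate 1.

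The 18 enzyme genes from hexokinase to lactate dehydrogenase together took 7180, 7281 and 7566 CPM in DMSO replicates 1, 2 and 3, and 7757, 7355 and 8036 CPM in blebbistatin replicates 1, 2 and 3. That is 0.718 to 0.804% of each library's reads. The groups overlapped in this sum.

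At the exit of the pathway, LDHA and LDHB encode the subunits of lactate dehydrogenase, with the B subunit prevalent in adult heart. LDHA was at 905.7, 823.9 and 898.9 CPM with DMSO and 941.1, 888 and 905.1 CPM with blebbistatin (log2 fold change 0.019 ± 0.13, interval -0.28 to 0.32). LDHB was at 245.3, 341.4 and 402.6 CPM and at 422.7, 335.8 and 363.8 CPM. DMSO replicate 1 was the lowest for LDHB, whose fold change of 0.17 ± 0.18 (log2) became 0.012 without it. PDHA1, the catalytic alpha subunit gene of pyruvate dehydrogenase, and PDK1, a kinase that shuts the complex down, had values of -0.06 ± 0.13 and -0.034 ± 0.18. The lactate carriers SLC16A1 and SLC16A3 had values of -0.03 ± 0.12 and 0.12 ± 0.19.

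The bifunctional enzymes of the PFKFB family set fructose 2,6-bisphosphate, the activator of phosphofructokinase. PFKFB2, the heart isozyme, was at 11.7 ± 1.42 and 11.7 ± 0.849 CPM. PFKFB3, an isozyme induced by HIF and mitogens, was at 24.9, 11.7 and 25.5 CPM with DMSO and 23.4, 24 and 11.4 CPM with blebbistatin. It thus sat at a low level in DMSO replicate 2 and blebbistatin replicate 3 and at about the same higher level in the other 4 libraries, with 1 low library in each group. Its interval was wide, from -1.05 to 0.83 on the log2 scale.

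The oxygen-regulated subunit genes HIF1A and EPAS1 encode proteins that are controlled mainly by degradation. HIF1A was at 136, 142.8 and 115.6 CPM with DMSO and 118.9, 146.7 and 126.6 CPM with blebbistatin (log2 fold change -0.047 ± 0.16). EPAS1 was at 188.9, 137.2 and 101.6 CPM and at 113.3, 130.4 and 144.3 CPM. The highest EPAS1 value was that of DMSO replicate 1, and its fold change of -0.14 ± 0.26 (log2) became 0.13 without that library.

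Of the 4 HIF effectors tested, 3 had positive fold changes, and without DMSO replicate 1 the values of all 4 were negative. VEGFA, the vascular endothelial growth factor gene, was at 114.1, 259.4 and 306.9 CPM with DMSO and 294.6, 209.3 and 246.9 CPM with blebbistatin. BNIP3, a mitophagy receptor gene, was at 36.9, 61.5 and 73.1 CPM and at 72.8, 62.3 and 58.6 CPM. For both genes DMSO replicate 1 was the lowest library, and their log2 fold changes of 0.21 ± 0.33 and 0.19 ± 0.22 became -0.18 and -0.055 without it. ADM, for the vasodilator peptide adrenomedullin, was at 47, 56.3 and 51.5 CPM and at 45.6, 47.1 and 54 CPM. Limma gave it a value of -0.12 ± 0.13 (log2, adjusted p = 0.991). P4HA1, a collagen prolyl hydroxylase gene, was at 361.9 ± 30.6 and 369.8 ± 19.6 CPM. A row under the rat symbol CAR9, which RefSeq pairs with the synonym CA9 and which lies outside the rule, was at 1.52 to 2.98 CPM with DMSO and 1.86 to 2.09 CPM with blebbistatin.

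DMSO replicate 1 was the lowest of the 6 for 12 members and the highest for 8 (58.8% of members), beside 69% of all genes tested. Single genes carried much of the shift of a group in that library. Of the 8 genes from triose to pyruvate 3 were lowest there, with a mean log2 difference of -0.39 from the remaining libraries, which was -0.046 without TPI1 (-2.77). The glucose transporters had a mean difference of -0.50, from SLC2A4 at -0.97 and SLC2A1 at -0.03. Of the 4 HIF effectors tested 3 were lowest there, with a mean difference of -0.47, or -0.27 without VEGFA. For the genes from hexokinase to aldolase the mean was 0.13, or 0.044 without ALDOC. Of 14 cardiomyocyte markers 8 were lowest and 4 highest there (median difference -0.48), and of 11 macrophage markers 8 were lowest (-0.87). Of 4 red blood cell genes 3 were highest there (1.57), and fibroblast markers had a median difference of -0.0076. The part of these shifts in the members' values was not tested. Without DMSO replicate 1, the fold change of 15 of 34 members took the opposite sign, and limma called 0 members. Values within a group spanned at least 2-fold for 5 members (14.7%): SLC2A4, TPI1, PFKFB3, EPAS1 and VEGFA. Over all genes tested, which had a lower mean level than the members, the share was 30.7%.

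**Figure D3:**
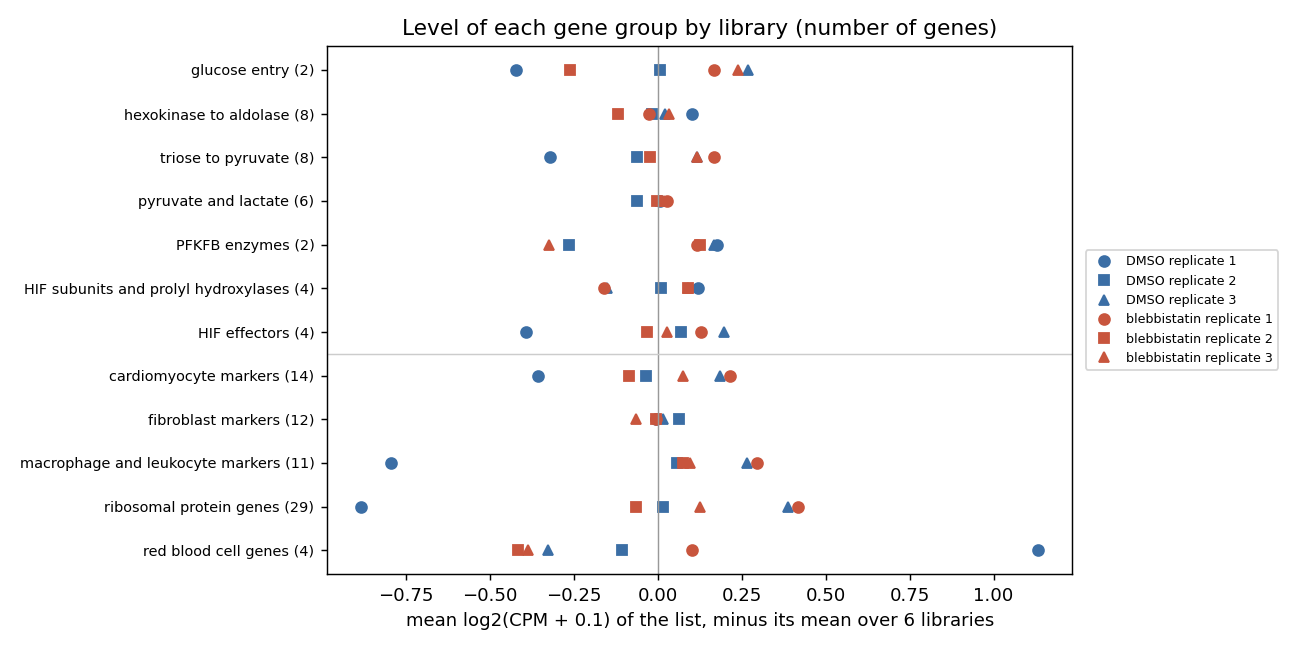
Each point is the mean log2(CPM + 0.1) of a gene list in 1 library, after TMM scaling, minus the list's mean over the 6 libraries, with the number of genes in brackets. DMSO replicate 1 (blue circle) has the lowest mean for the glucose transporters, the triose to pyruvate genes and the HIF effectors. The first 2 of these rest on SLC2A4 (-0.97) and TPI1 (-2.77). That library also has the lowest mean for the cardiomyocyte markers, the macrophage markers and the ribosomal protein genes. The ribosomal mean there includes RPS19, listed at 0.

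Ratios between paired genes in the same library do not depend on scaling. Of 13 pairs, 1 had groups that did not overlap, ALDOC to ALDOA. In log2, the DMSO libraries had ratios of -4.01, -4.49 and -4.47 and the blebbistatin libraries ratios of -4.56, -4.88 and -4.88, a difference of -0.45. The exact two-sided permutation test gave p = 0.1, the smallest that 3 against 3 libraries allow, and an adjusted p of 0.945 over the 13 pairs. EGLN3 to EGLN1 followed with a difference of -0.40 (exact permutation p = 0.2, adjusted p = 0.945) and overlapping groups. LDHA to LDHB stood at 1.88 in DMSO replicate 1 and at 1.15 to 1.40 in the other 5 libraries, a difference between groups of -0.15. The ratios EPAS1 to HIF1A, HK2 to HK1 and PFKM to PFKL differed by -0.093, -0.059 and 0.011. Since the design cannot go below 0.1, none of these ratios could have passed.

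**Figure D4:**
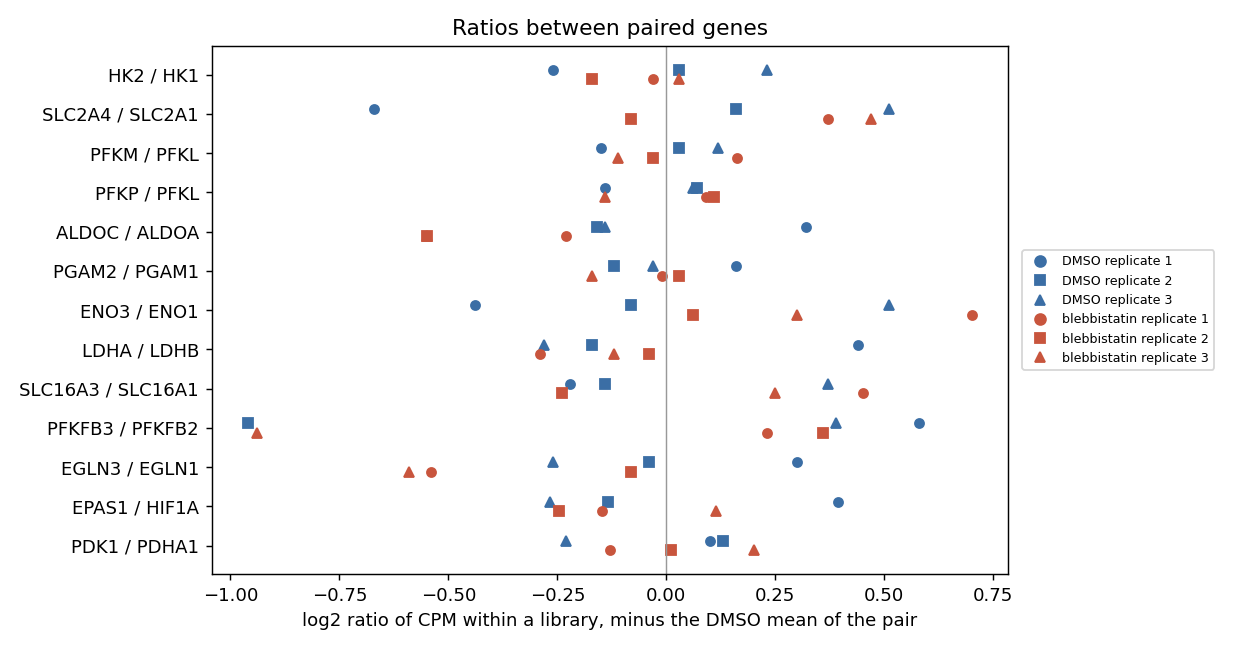
Points are log2 ratios of CPM between the genes of a pair in 1 library, minus the pair's mean over the 3 DMSO libraries (blue, DMSO; red, blebbistatin). ALDOC to ALDOA is the pair in which red and blue points do not overlap, with a difference of -0.45.

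Other genes of these pathways were read from the same fit over all genes. Limma called 0 of the 18 tested genes in the wider glycolysis and gluconeogenesis list, 0 of 17 in the pyruvate and lactate list, 0 of 40 in the wider HIF list, 0 of 18 in glycogen metabolism and 0 of 6 in the pentose phosphate pathway. GYS1 and GBE1 stand in both the HIF and the glycogen list. At an unadjusted p under 0.05 the lists held 1, 0, 2, 1 and 0 genes, which were BPGM, CITED2, DDIT4 and PPP1R3C. Their medians were 0.04, 0.031, -0.03, -0.0032 and 0.092, beside 0.004 over all genes. The lowest p in the pyruvate and lactate list was that of PDHX, a binding protein of pyruvate dehydrogenase (0.25 ± 0.16), and in the pentose phosphate list that of PGLS, the lactonase (0.098 ± 0.15).

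CITED2, which competes with HIF alpha for its coactivator and is itself a HIF target, was at 296.8, 363.6 and 336.6 CPM with DMSO and 223.7, 242.3 and 260 CPM with blebbistatin. The 3 treated values lay below the 3 controls. Limma gave it a value of -0.49 ± 0.13 (log2, adjusted p = 0.991), and of -0.53 without DMSO replicate 1. DDIT4, an inhibitor of the growth kinase mTORC1 that responds to hypoxia and glucocorticoids, was at 16.7, 30.8 and 33.3 CPM and at 47.8, 43 and 51.6 CPM. Its groups did not overlap either. Limma gave it a value of 0.84 ± 0.23 (log2, adjusted p = 0.991), which was 0.57 without DMSO replicate 1. CXCR4, a chemokine receptor gene, had a value of 0.70 ± 0.32 with overlapping groups.

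In glycogen metabolism, PPP1R3C, which targets protein phosphatase to glycogen and favours its synthesis, was at 25.3, 28.9 and 27.6 CPM with DMSO and 36.1, 35.1 and 35.4 CPM with blebbistatin. Each treated value exceeded each control. The log2 fold change was 0.34 ± 0.11 (limma, adjusted p = 0.991). It ran from 0.33 to 0.37 with each library left out in turn. PHKG2, the catalytic subunit gene of phosphorylase kinase, also had groups that did not overlap (0.20 ± 0.13). In the wider glycolysis list BPGM, bisphosphoglycerate mutase, was at 12.3, 14.2 and 18.7 CPM and at 21.3, 18.8 and 21.4 CPM. Limma gave it a value of 0.42 ± 0.17 (log2, adjusted p = 0.991). DMSO replicate 1 was the lowest library for BPGM, and the value without it was 0.33. None of these genes passed over all genes tested.

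**Figure D5:**
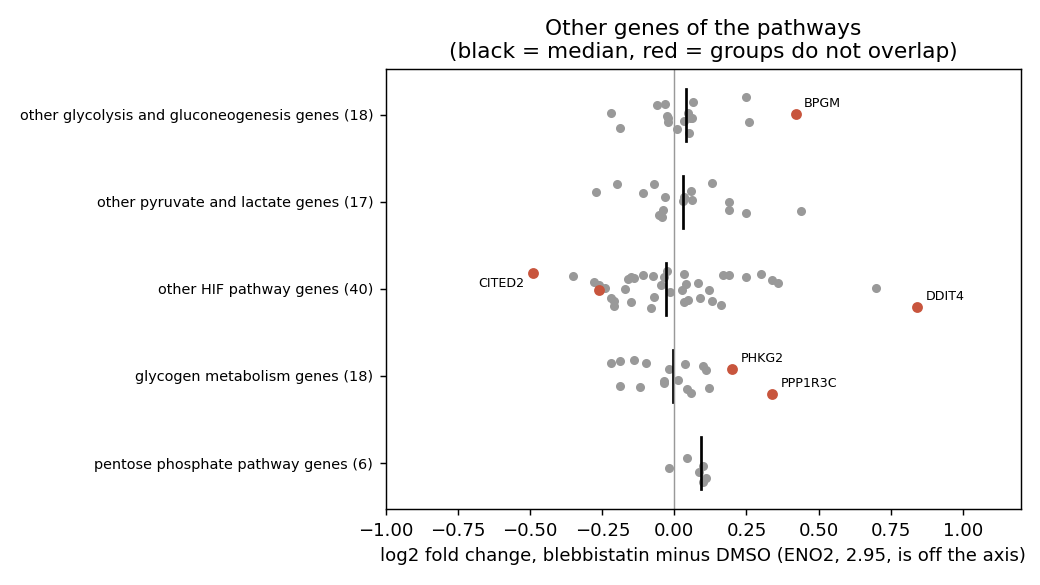
Each point is the log2 fold change (blebbistatin minus DMSO) of 1 gene in a pathway list that holds no member, with the number of tested genes in brackets and ENO2, at 2.95, off the axis. CITED2 at -0.49 and DDIT4 at 0.84 lie at the ends of the wider HIF list, and the list medians lie between -0.03 and 0.092.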

How the data were processed

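RNA values were analysed from 6 libraries, 3 per group. Values are CPM as deposited by the authors: every column adds up to the same total, although the labels speak of counts. In each library 99.1 to 99.2% of values above 0 were whole multiples (tolerance 0.02) of a smallest unit, 0.0158 to 0.0168 CPM, which was read as 1 read, so 3 reads are 0.0474 to 0.0503 CPM (counting error only). The submitters' processing notes list, for RNA and chromatin samples together, the build rn6 and, among other tools, StringTie 1.3.4, HISAT2 2.1.0 and edgeR 3.20.9, without their roles. Neither annotation nor strand setting is given in the sources used here.

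Genes reaching 0.162 CPM in 3 or more libraries (10 reads in a library of 61.7 M, the median) were tested with limma 3.58.1 in R 4.3.3 (trend and robust settings, no block, two-sided) on log2 of TMM-scaled CPM with a pseudocount of 0.1, adjusted by Benjamini-Hochberg over all genes. The pseudocount understates changes of low genes. TMM factors (0.928 to 1.03) were computed without weights. Single values are CPM as deposited, whereas each mean ± SD was taken after TMM scaling. Exact permutation tests used scipy 1.17.1. The steps were tested on simulated data.

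Members and lists were chosen with earlier results of these data known. By rule, values in every library are given for members with separated groups or the lowest p of their role group, and up to 3 genes per wider list are named. Other members' single values, and SPSB2 and ENO2, were chosen after their values were seen. Alternatives covered scaling, filter, pseudocount, replicate block and leaving out each library. RefSeq promoter windows matched 32 of 34 members.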

Additional observations from a re-analysis of the deposited data

How the results depend on the processing

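Limma called 0 members under each alternative and with each library left out, and the lowest adjusted p of a member over these was 0.593. The count at an unadjusted p under 0.05 was 1 with no scaling factor (ALDOC, 2.94% of members, beside 1.58% of all genes). It was between 0 and 3 when a library was left out. ALDOC, ENO3 and EGLN1 were counted without DMSO replicate 3 (8.82% of members, beside 6.13% of all genes in that setting). Members with separated groups numbered 1 with RLE size factors, where EGLN1 was lost (2.94% of members, beside 6.12% of all genes). They numbered between 3 and 7 when a library was left out. The highest count was without blebbistatin replicate 2 (20.6% of members, beside 14.7% of all genes). Over the left-out libraries, 12.0 to 22.5% of all genes had separated groups. With fewer libraries separation is easier by construction. Pairs with separated ratios numbered 1 to 3. With no scaling factor, which moved the median of all genes from 0.004 to 0.042, values changed sign for SLC2A1 (0.011), GAPDH (0.038), PGAM2 (0.035), PDK1 (0.0044) and SLC16A1 (0.0091). Under the 6 settings that changed neither the scaling to none nor the libraries used, 204 of 204 member values kept their sign. Of these settings, the filters and the replicate block cannot change a fold change by construction. RLE factors nearly equalled the TMM factors (0.927 and 0.928 in DMSO replicate 1). The count therefore says little about stability. ALDOC kept separated groups under each setting, with RLE size factors and with no scaling factor among them. Filter, pseudocount and block do not enter that measure. Leaving out a library can undo a separation only through the recomputed scaling.

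With the replicate block 0 members and 2 genes in all were called. Deviations of same-numbered libraries correlated at -0.29, 0.054 and -0.092, so the numbers were not taken to pair the samples.

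Leaving out each library in turn changed the sign of 23 of 34 members, 15 of them without DMSO replicate 1. The cause was not tested. Ranges of the values that took both signs were -0.071 to 0.047 for SLC2A1, -0.13 to 0.51 for SLC2A4, -0.016 to 0.11 for GPI, -0.068 to 0.15 for PFKM, -0.064 to 0.12 for PFKL, -0.026 to 0.11 for PFKP, -0.023 to 0.088 for ALDOA and -0.15 to 1.39 for TPI1. Further ranges were -0.065 to 0.063 for GAPDH, -0.078 to 0.045 for PGAM2, -0.063 to 0.11 for PKM, -0.044 to 0.088 for LDHA, -0.19 to 0.10 for PDK1, -0.11 to 0.024 for PDHA1, -0.095 to 0.0094 for SLC16A1 and -0.063 to 0.10 for PFKFB2. Others were -0.50 to 0.24 for PFKFB3, -0.16 to 0.028 for HIF1A, -0.39 to 0.13 for EPAS1 and -0.18 to 0.04 for EGLN3. The rest of the members' ranges were -0.18 to 0.46 for VEGFA, -0.055 to 0.37 for BNIP3 and -0.011 to 0.10 for P4HA1. PGLS, a gene of the pentose phosphate list and not a member, ran from -0.02 to 0.19. Each test rests on 3 libraries per group, and a true difference of any size within a gene's interval remains compatible with these values.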

Other observations

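ENO2, the neuronal enolase gene of the wider glycolysis list, was listed at 0 in DMSO replicate 3 and stood at 29.2 to 41.4 CPM in the other 5 libraries. Its fitted log2 fold change of 2.95 ± 2.47 rests on that value. In all, 105 genes were listed at 0 in some library while reaching 5 CPM elsewhere.

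The pattern of PFKFB3, low in DMSO replicate 2 and blebbistatin replicate 3 together, was shared by other genes. Of the tested genes, 43 of 15204 (0.283%) were in both of these libraries below 0.6 times their lowest value in the other 4. Over the 15 possible pairs of libraries such counts ran from 19 to 119, with the highest for DMSO replicate 1 and blebbistatin replicate 2.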
